A study of Mus musculus with 48 samples.

Results

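The comparison set libraries of sorted islet cells taken late in the day, at zeitgeber time 8 (ZT8, 8 h after lights on), against libraries taken late in the night at ZT20. Every library whose title carries one of these times was used, 8 at ZT8 and 8 at ZT20, which makes 16 of the 48 libraries of the series. They hold α cells (glucagon-secreting) and β cells (insulin-secreting), each from control mice (CTR) and from mice given doxycycline (DOX). Cell type and treatment make 4 conditions, and each condition has 2 libraries at each time.

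All animals were male mice aged 6 to 8 weeks of 1 genotype. They carry the fluorescent reporters ProGcg-Venus and RIP-Cherry, driven by the proglucagon and rat insulin promoters, and PER2::Luc, a luciferase fusion of the clock protein PER2. The further transgenes, Insulin-rtTA and TET-DTA, switch on diphtheria toxin A in insulin-expressing cells when doxycycline is present. DOX mice received 300 mg of doxycycline in drinking water with 2% sucrose, to bring about a massive ablation of β cells, and CTR mice received the sucrose water alone. The β cells sorted from DOX mice are therefore those that remained, and no group received the drug without the toxin transgene. Light and dark phases lasted 12 h each, and food was offered only in the night from 10 days before the experiment, so ZT8 falls in the daily fast and ZT20 in the feeding phase. Light, feeding and clock time thus cannot be told apart. The labels add that some of the animals were kept on inverted light and feeding cycles for 2 weeks, without saying which libraries came from them.

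In mammals a circadian clock runs in most cells: CLOCK and BMAL1 (gene Arntl) switch on the Period and Cryptochrome genes through E-box sequences, and the PER and CRY proteins then shut off their own transcription. REV-ERB and ROR receptors set the level of Arntl in a second loop. In islet cells such clocks are known to time hormone secretion, which depends on the folding of large amounts of hormone in the endoplasmic reticulum (ER). Feeding and body temperature, both higher in the night in mice, give the cells further timing cues.

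Library depth was 16.1 M to 23.1 M estimated counts in the earlier of 2 sequencing runs and 43.3 M to 63.1 M in the later run, where M stands for 1000000. Each condition and time had 1 library in each run, so that 8 pairs of ZT8 and ZT20 libraries share condition and run. The α and β libraries of a treatment, time and run may come from the same islets, which the labels do not say. The fit over all conditions and the counts of pairs treat them as independent, and if they are not, its p-values are too small. Levels are given as CPM, the counts of a gene per 1000000 counts of its library after scaling for library composition. By the main hormone genes the sort was as labelled. Gcg stood at 268671 to 454719 CPM in α libraries and at 144 to 341 CPM in β libraries, and Ins2 at 172662 to 269290 CPM in β libraries. Ins2 was at 235 to 670 CPM in α libraries, except for the control α library of the later run at ZT20, which had 2668 CPM. The summed level of the δ, PP and ε cell markers was 21980 to 42884 CPM in α libraries and 733 to 1693 CPM in β libraries. That of the macrophage and dendritic cell markers was 70.1 to 133 CPM in α and 106 to 1335 CPM in β libraries. Markers of other cell types were thus present in the sorted libraries. In bulk libraries such as these, fewer cells of a type and less RNA per cell cannot be told apart. The labels do not say that the libraries of a group came from separate animals, and p-values here therefore measure only how far libraries spread, which may be technical.

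Digestive enzyme genes of pancreatic acinar cells, the exocrine neighbours of the islet, differed between the times. The summed level of 18 acinar markers was 16.6 to 8441 CPM at ZT8 and 9.71 to 263 CPM at ZT20. It was higher at ZT8 in 7 of 8 pairs, and the later-run ZT8 libraries of DOX α cells (8441 CPM) and DOX β cells (5794 CPM) stood far above the other 14 libraries, which reached 632 CPM at most. Trypsinogen (Prss2), for example, was at 538 and 338 CPM in those libraries and at 0.0852 to 36.5 CPM in the others. The share of these transcripts thus differed between these ZT8 and ZT20 libraries, and its part in the results below was not tested. The counts of the main lists are therefore also given without those ZT8 DOX libraries of the later run, a choice made after seeing the data. The title of each later-run library also ends in a number that is 6 at every ZT8 and 7 at every ZT20 library, so whatever it stands for cannot be told apart from time in that run. In the earlier run this number was the same at both times in β cells and differed in α cells.

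**Figure D1:**
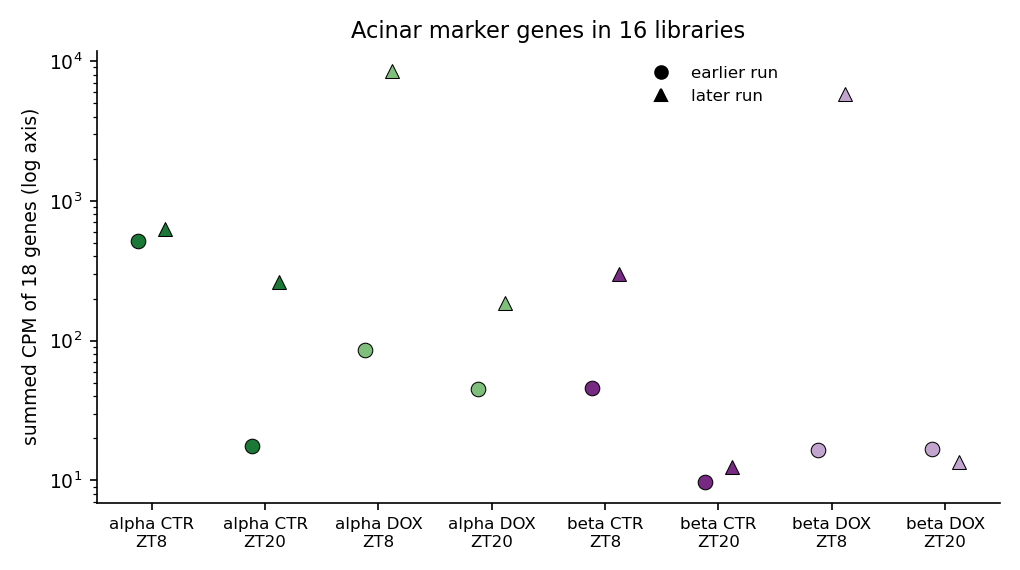
Summed level of 18 acinar marker genes in each of the 16 libraries (CPM, log axis), by cell type, treatment and time, with the sequencing run as the symbol. The ZT8 libraries of DOX α and DOX β cells of the later run stand at 8441 and 5794 CPM, and all others at 632 CPM or less.

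At an adjusted p under 0.05 (edgeR's quasi-likelihood test with condition and run as terms, Benjamini-Hochberg adjusted over all genes), 3443 of 16610 genes differed between ZT20 and ZT8, 20.7% of those tested. Of these, 1608 (9.68%) were higher and 1835 (11.0%) were lower at ZT20. Most changes were small: 120 of the higher and 345 of the lower genes changed at least 2-fold. The median log2 fold change over all genes was -0.006. Without the ZT8 DOX libraries of the later run the test called 1818 of 16667 genes, 799 higher and 1019 lower. The counts of higher and lower genes were 143 and 133 of 15648 in the control libraries alone and 531 and 695 of 16243 in the DOX libraries alone. They were 764 and 758 of 16254 in the earlier run alone and 646 and 549 of 17352 in the later run alone. List counts from these smaller fits are to be read beside these totals. After condition and run had been taken out, the first principal component held 25.6% of the variance, with every ZT20 library between -39.6 and -11.6 and every ZT8 library between 8.8 and 45.6.

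Cry1, a core repressor of the clock, was among the largest rises. In α cells it went from 11.3 CPM at ZT8 to 37.3 CPM at ZT20 (CTR, earlier run), from 19.4 to 39.5 (CTR, later run), from 14 to 48.7 (DOX, earlier run) and from 7.90 to 53.3 CPM (DOX, later run). In β cells the same pairs went from 16.9 to 63.4, from 17.3 to 36.0, from 14.4 to 45.4 and from 9.70 to 41.0 CPM. Every ZT20 library lay above every ZT8 library, in both cell types and both treatments. Its log2 fold change was 1.73 ± 0.17 (SE; edgeR adjusted p = 1.55e-05), with 1.78 in α and 1.68 in β cells.

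The clock repressor list held the Period and Cryptochrome genes and Ciart. Of its 6 genes tested, 3 were higher at ZT20 and none lower (edgeR), with a median log2 fold change of 0.56. Over all genes 9.68% were higher and 11.0% lower. Per2 was at 11.1 to 38.6 CPM at ZT8 (median 15.9) and at 29.9 to 48.9 CPM at ZT20 (median 37.6). The groups overlapped through a single library, control β cells of the later run at ZT8 (38.6 CPM), and Per2 was higher at ZT20 in 7 of 8 pairs. Its log2 fold change was 1.18 ± 0.16 (adjusted p = 0.000175). Per1 rose by 0.71 ± 0.13 (adjusted p = 0.00148), from a median of 48.4 to 72.0 CPM. Per3, Cry2 and Ciart did not pass, with log2 fold changes of -0.33, -0.04 and 0.40. By cell type, the lowest log2 fold change among the 6 genes was -1.73 in α and -0.44 in β cells, and none was called lower in either. The largest β minus α difference was 2.58, and none of the 6 passed that test. In the later run alone 2 of the 6 were higher and 1 was lower. Per1 and Per2 did not pass in the 8 control libraries alone (log2 fold changes of 0.52 or more, adjusted p of 0.0617 or more), and Per1 did not pass in the later run alone.

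Among the clock's activators, Arntl was higher at ZT20 in 7 of 8 pairs, with a median of 8.47 CPM at ZT8 and 15.4 CPM at ZT20 (log2 fold change 0.88 ± 0.17, adjusted p = 0.00248). It did not pass in the earlier run alone (0.83) or in the DOX libraries alone (0.48). Clock, its partner, was higher in 8 of 8 pairs by only 0.24 ± 0.09 and did not pass (adjusted p = 0.0633). Npas2 and Arntl2 did not pass either, at -0.60 and -0.06.

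Among the receptors of the second loop, 2 named members were lower at ZT20. Nr1d2, which encodes the repressor REV-ERBβ, was at 87.5 to 214 CPM at ZT8 (median 112) and at 29.2 to 130 CPM at ZT20 (median 50.5). It was lower at ZT20 in 8 of 8 pairs (log2 fold change -1.25 ± 0.18, adjusted p = 0.000287), and in α cells the ZT20 libraries (29.2 to 37.8 CPM) all lay below the ZT8 libraries (95.2 to 134 CPM). Rora fell by 0.27 ± 0.07 (adjusted p = 0.0148), a call that was lost in 9 of the other settings, among them those without the DOX β library of the earlier run at ZT20 or the control α library of the earlier run at ZT8, at log2 fold changes of -0.32 to -0.20.

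Nr1d1 (REV-ERBα) is given by cell type, since its β libraries did not move one way. In α cells it was at 64.7 to 95.9 CPM at ZT8 and at 6.69 to 8.14 CPM at ZT20, without overlap (log2 fold change -3.27 ± 0.13, edgeR adjusted p = 2.69e-06). In β cells it went from 351 to 501 CPM (CTR, earlier run), from 132 to 32.7 CPM (CTR, later run), from 167 to 158 CPM (DOX, earlier run) and from 92.2 to 149 CPM (DOX, later run). The β libraries thus went in different directions, and their log2 fold change was 0.09. The difference between the cell types was 3.34 and missed the threshold (edgeR adjusted p = 0.0527).

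Dbp, a clock output factor of the PAR bZIP family, was lower at ZT20 in 7 of 8 pairs, with medians of 41.9 CPM at ZT8 and 16.5 CPM at ZT20 (log2 fold change -1.23 ± 0.31, adjusted p = 0.0103). Its fold change was -1.85 in α and -0.63 in β cells, and the call was lost in the DOX libraries alone (-0.94). Tef and Nfil3 passed at -0.40 and 0.70, and each call was lost in 8 other settings (log2 fold changes of -0.52 to -0.24 for Tef and 0.43 to 1.03 for Nfil3). For Tef these included leaving out the control α or DOX α library of the later run at ZT20 or the control β library of the earlier run at ZT8. For Nfil3 they included leaving out either control β library at ZT8 or the DOX β library of the later run at ZT8.

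The sequence CACGTG, the canonical E-box, was looked for on both strands of the 250 bases before the RefSeq start of 27025 genes (GRCm38.p6). It was present in 6.02% of all promoters. Of the list of Period and Cryptochrome genes and Ciart, 5 promoters had an entry and 3 held it, those of Cry1, Per1 and Ciart (Per2 had no entry). The Cry1 window is chr10:85185089-85185134 on the minus strand and the Per1 window chr11:69098763-69098808 on the plus strand. They are shown because both genes were higher at ZT20, with the E-box in capitals.
Cry1: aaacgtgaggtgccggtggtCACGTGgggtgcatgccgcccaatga
Per1: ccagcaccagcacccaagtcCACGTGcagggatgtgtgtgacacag
The E-box of Cry1 began 60 bases and that of Per1 166 bases before the start. A match describes these letters and shows no binding.

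**Figure D2:**
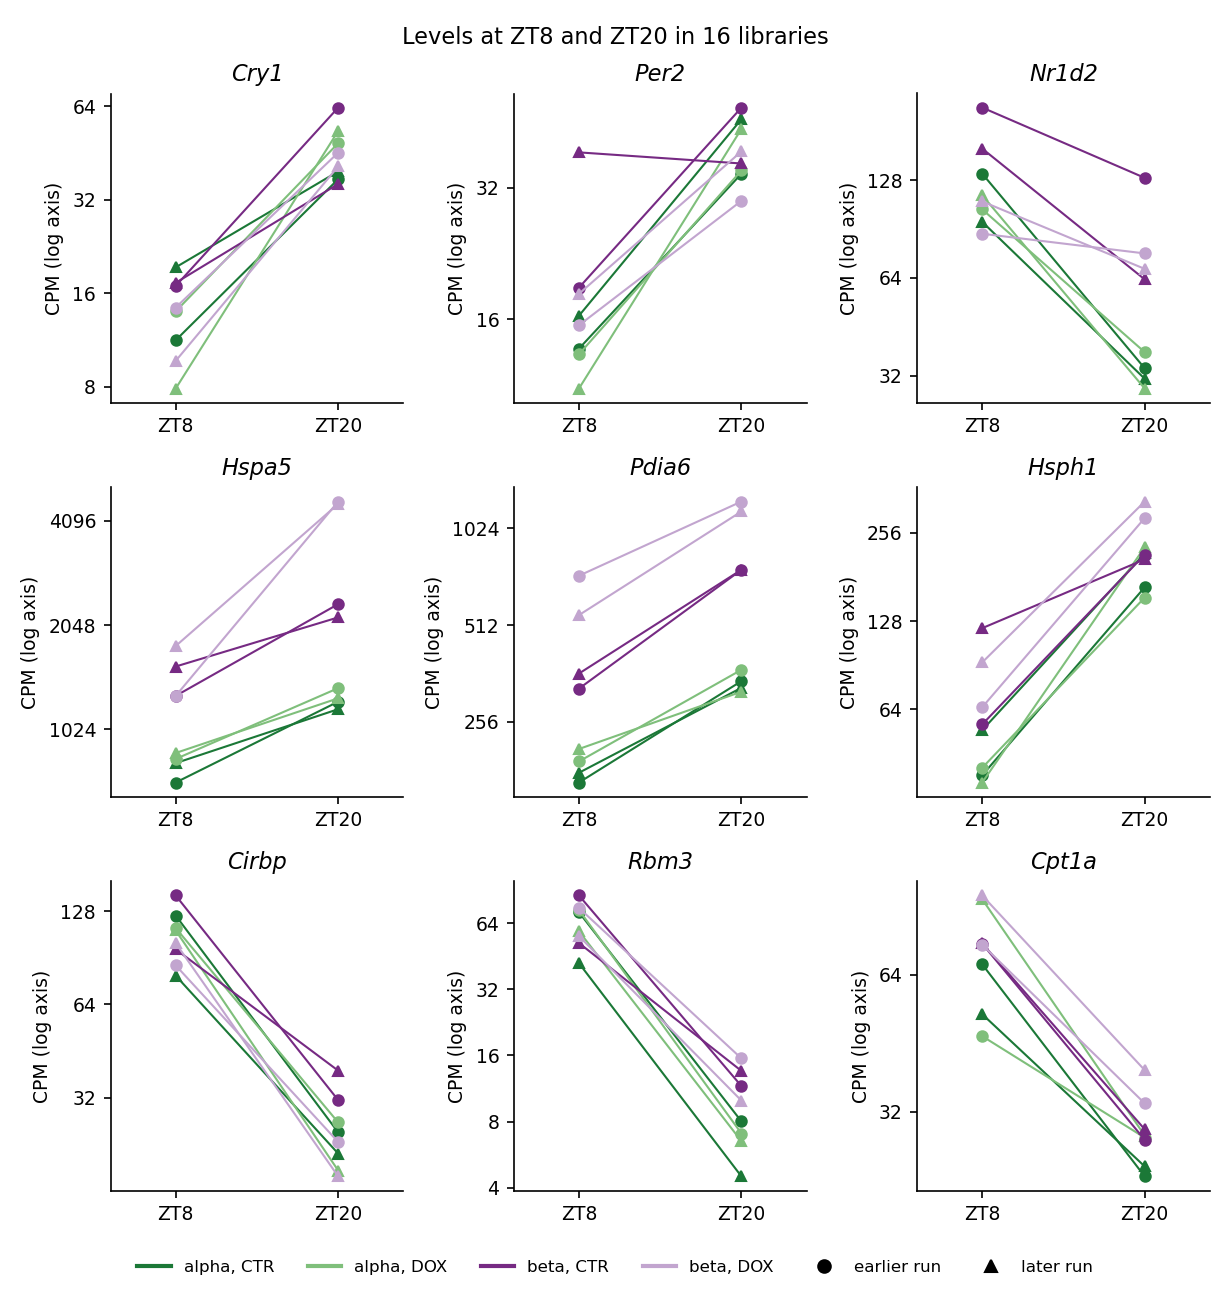
Level of 9 genes (CPM, log axis) in the 16 libraries, with a line joining the ZT8 and ZT20 libraries of the same condition and run, colour for cell type and treatment and symbol for the run. Cry1 and Hsph1 were higher and Cirbp, Rbm3 and Cpt1a lower at ZT20 in all 8 pairs with no overlap between the times.

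Chaperones and folding enzymes of the ER were higher at ZT20 almost as a block. Of 24 such genes tested, 21 passed as higher and 0 as lower, where 9.68% of all genes were higher, and 18 were higher in 8 of 8 pairs (5.49% of all genes were). Their median log2 fold change was 0.48, against -0.006 over all genes. Without the ZT8 DOX libraries of the later run, 17 were higher with a median of 0.47. In the earlier run alone 15 passed, in the later run alone 14 and in the control libraries alone 10, with medians of 0.49 to 0.54.

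Hspa5, which encodes BiP, the main HSP70 chaperone of the ER, was at 719, 818, 841 and 875 CPM in the 4 α libraries at ZT8 and at 1231, 1171, 1347 and 1259 CPM in those at ZT20. In control β cells it went from 1279 to 2355 and from 1555 to 2156 CPM, and in DOX β cells from 1279 to 4659 and from 1782 to 4585 CPM. All 8 pairs rose, and within each cell type the times did not overlap. The log2 fold change was 0.88 ± 0.13 over all conditions (adjusted p = 0.000354). By condition it was 0.66 in control α, 0.62 in DOX α, 0.65 in control β and 1.59 in DOX β cells, but the difference between treatments, averaged over the cell types, did not pass (0.45, adjusted p = 1).

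Pdia6, a protein disulfide isomerase that acts on proinsulin, was at 166 to 211 CPM in α libraries at ZT8 and at 318 to 372 CPM at ZT20. In β libraries it was at 325 to 729 CPM at ZT8 and at 761 to 1240 CPM at ZT20. The times did not overlap in either cell type, and the log2 fold change was 0.94 ± 0.08 (adjusted p = 2.95e-06). Sdf2l1, a cofactor of ER protein folding, rose from 17.9 to 19.3 CPM at ZT8 to 31.4 to 38.5 CPM at ZT20 in α cells and from 74.2 to 158 CPM to 208 to 412 CPM in β cells (log2 fold change 1.16 ± 0.10, adjusted p = 5.3e-06). Calr, the calcium-binding lectin chaperone calreticulin, and Dnajb11, a DNAJ partner of BiP, rose by 0.72 ± 0.07 and 0.86 ± 0.08, each in 8 of 8 pairs. These 4 genes and Hspa5 passed in every other setting of the comparison over all conditions.

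The ER stress element, CCAAT and CCACG with 9 bases of any kind between them, a known target of ATF6, was present in 32 of 27025 promoters (0.118%). It was present in 7 of the 19 ER chaperone promoters with an entry (36.8%): Hspa5, Pdia6, Calr, Hsp90b1, Canx, Creld2 and Dnajc3, all 7 of which passed as higher at ZT20. The windows around the matches are chr2:34772005-34772063 (Hspa5, plus strand), chr12:17266471-17266529 (Pdia6, plus), chr8:84847055-84847113 (Calr, minus), chr10:86705513-86705676 (Hsp90b1, minus, 2 matches), chr11:50325780-50325838 (Canx, minus), chr15:88819500-88819558 (Creld2, plus) and chr14:118937807-118937865 (Dnajc3, plus). They are shown because these genes moved together, with the fixed letters of the element in capitals. Calr, Creld2 and the second match of Hsp90b1 read as the reverse complement.
Hspa5: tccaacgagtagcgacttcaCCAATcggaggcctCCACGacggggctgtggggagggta
Pdia6: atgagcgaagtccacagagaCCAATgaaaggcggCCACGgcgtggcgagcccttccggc
Calr: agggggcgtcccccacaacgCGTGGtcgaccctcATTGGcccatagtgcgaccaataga
Hsp90b1: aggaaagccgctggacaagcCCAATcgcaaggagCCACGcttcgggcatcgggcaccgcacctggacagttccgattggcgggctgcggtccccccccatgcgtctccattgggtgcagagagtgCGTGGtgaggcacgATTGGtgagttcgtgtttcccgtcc
Canx: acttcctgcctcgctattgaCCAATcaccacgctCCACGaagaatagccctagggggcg
Creld2: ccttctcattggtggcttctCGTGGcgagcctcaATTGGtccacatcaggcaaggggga
Dnajc3: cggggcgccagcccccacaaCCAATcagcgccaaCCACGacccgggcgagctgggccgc
Of these 7 genes, Creld2 (a secreted ER-stress protein) and Hsp90b1 (GRP94, the HSP90 of the ER) rose by 1.11 ± 0.15 and 0.71 ± 0.10 in log2. Canx (the membrane lectin chaperone calnexin) and Dnajc3 (p58IPK, an inhibitor of the kinase PERK) rose by 0.48 ± 0.06 and 0.62 ± 0.07. They were named for the element and not by the rule for named genes.

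Other stages of the secretory pathway rose by smaller amounts. Over all genes 9.68% were higher at ZT20. Of 30 genes for translocation into the ER, signal cleavage and N-glycosylation, 16 were higher and 0 lower (median 0.27), led by Rpn1, a subunit of the oligosaccharyltransferase (0.63 ± 0.07, adjusted p = 2.63e-05, 8 of 8 pairs). Of 35 genes of transport between ER and Golgi, 23 were higher and 0 lower (median 0.27), with the cargo lectin Lman2 at 0.56 ± 0.07 (adjusted p = 0.00014) and the COPII coat gene Sec23b at 0.62 ± 0.10 (adjusted p = 0.000731, but 0.0566 in the DOX libraries alone). Without the ZT8 DOX libraries of the later run these counts were 12 and 10, in a fit that called 799 of 16667 genes higher. Lman2 was at 210 to 354 CPM at ZT8 and at 268 to 574 CPM at ZT20, so the times overlapped across cell types while every pair rose.

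Of 14 genes of ER-associated degradation, 6 were higher, where 9.68% of all genes were, among them Edem1, a lectin of that pathway (0.57 ± 0.08, adjusted p = 0.000286). Leaving out the ZT8 DOX libraries of the later run, 3 were. Of 11 sensors and factors of the unfolded protein response, 5 were higher, and 5 also without those libraries. In the comparison over all conditions they were Ern1 (IRE1α), Eif2ak3 (PERK), Atf6b, Atf4 and Creb3l2, at log2 fold changes of 0.32 to 0.56 (named because they are all those called). Of 20 ATF4 target genes 3 were higher, against 9.68% of all genes, with a median of 0.09. In the control libraries alone Edem1 missed the threshold at 0.59 (edgeR adjusted p = 0.0562). The degradation and unfolded protein response lists each had 0 calls there, in a fit that called 143 of 15648 genes higher.

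Cytosolic heat shock chaperones were higher at ZT20 as well. Of 26 tested, 19 were higher and 0 lower, with a median log2 fold change of 0.66, where 9.68% of all genes were higher. In 8 of 8 pairs 17 were higher, as 5.49% of all genes were. Without the ZT8 DOX libraries of the later run 17 were higher (median 0.65), and in the control libraries alone 10 were (median 0.58). Hsph1, a nucleotide exchange factor of HSP70, had the largest rise by the rule used for naming. It was at 35.9 to 54.2 CPM in α libraries at ZT8 and at 154 to 229 CPM at ZT20. In β libraries it was at 56.7 to 121 CPM at ZT8 and at 208 to 328 CPM at ZT20. No ZT8 library reached the lowest ZT20 library (log2 fold change 1.92 ± 0.15, adjusted p = 1.99e-06).

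The same held for 3 other named members. Hspa8, the constitutive HSP70, was at 272 to 465 CPM at ZT8 and at 737 to 1155 CPM at ZT20 (1.25 ± 0.11, adjusted p = 5.3e-06). Hsp90aa1, the inducible HSP90, was at 127 to 210 CPM and at 315 to 470 CPM (1.25 ± 0.10, adjusted p = 2.53e-06). Chordc1, an HSP90 cochaperone, was at 23.5 to 36.3 CPM and at 64.4 to 88.8 CPM (1.29 ± 0.09, adjusted p = 1.17e-06). All 4 rose in every pair and passed in every other setting over all conditions.

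Paired heat shock units, GAANNTTC or TTCNNGAA, the kind of repeat bound by HSF1, were present on either strand in 7 of the 21 heat shock promoters with an entry (33.3%) and in 13.0% of all promoters. The longer form with 3 alternating GAA and TTC units, 2 bases apart, was in 1 of the 21 and in 0.403% of all promoters. Hspa8 and Hsp90aa1 had no entry. The windows of Hsph1 (chr5:149636342-149636389, minus strand) and of Dnaja1, a DNAJ partner of HSP70 that rose by 0.60 ± 0.10 (chr4:40722324-40722371, plus strand), show 1 pair each, in capitals.
Hsph1: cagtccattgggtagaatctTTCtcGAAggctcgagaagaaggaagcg
Dnaja1: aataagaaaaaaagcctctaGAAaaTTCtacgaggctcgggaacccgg

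The 2 cold-inducible RNA-binding protein genes, whose transcripts are known to rise when temperature falls, went the other way. Cirbp was at 124, 79.3, 113 and 111 CPM in α libraries at ZT8 and at 24.7, 21.1, 26.6 and 18.6 CPM at ZT20. In β libraries it was at 144, 96.5, 85.6 and 101 CPM at ZT8 and at 31.4, 39.1, 23.0 and 17.8 CPM at ZT20. The lowest ZT8 library stood above the highest ZT20 library. The log2 fold change was -2.11 ± 0.12 (adjusted p = 7.27e-08), with -2.22 in α and -1.98 in β cells.

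Rbm3 changed more. It was at 42.1 to 73.5 CPM in α libraries at ZT8 and at 4.50 to 8.01 CPM at ZT20, and in β libraries at 52.0 to 85.6 and at 9.96 to 15.5 CPM. The log2 fold change was -2.79 ± 0.15 (adjusted p = 7.27e-08), with -3.22 in α and -2.38 in β cells. Both genes were lower at ZT20 in 8 of 8 pairs and passed in every setting of each of these 3 comparisons. The difference between cell types was not called for either gene (Rbm3 0.82, adjusted p = 0.158).

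**Figure D3:**
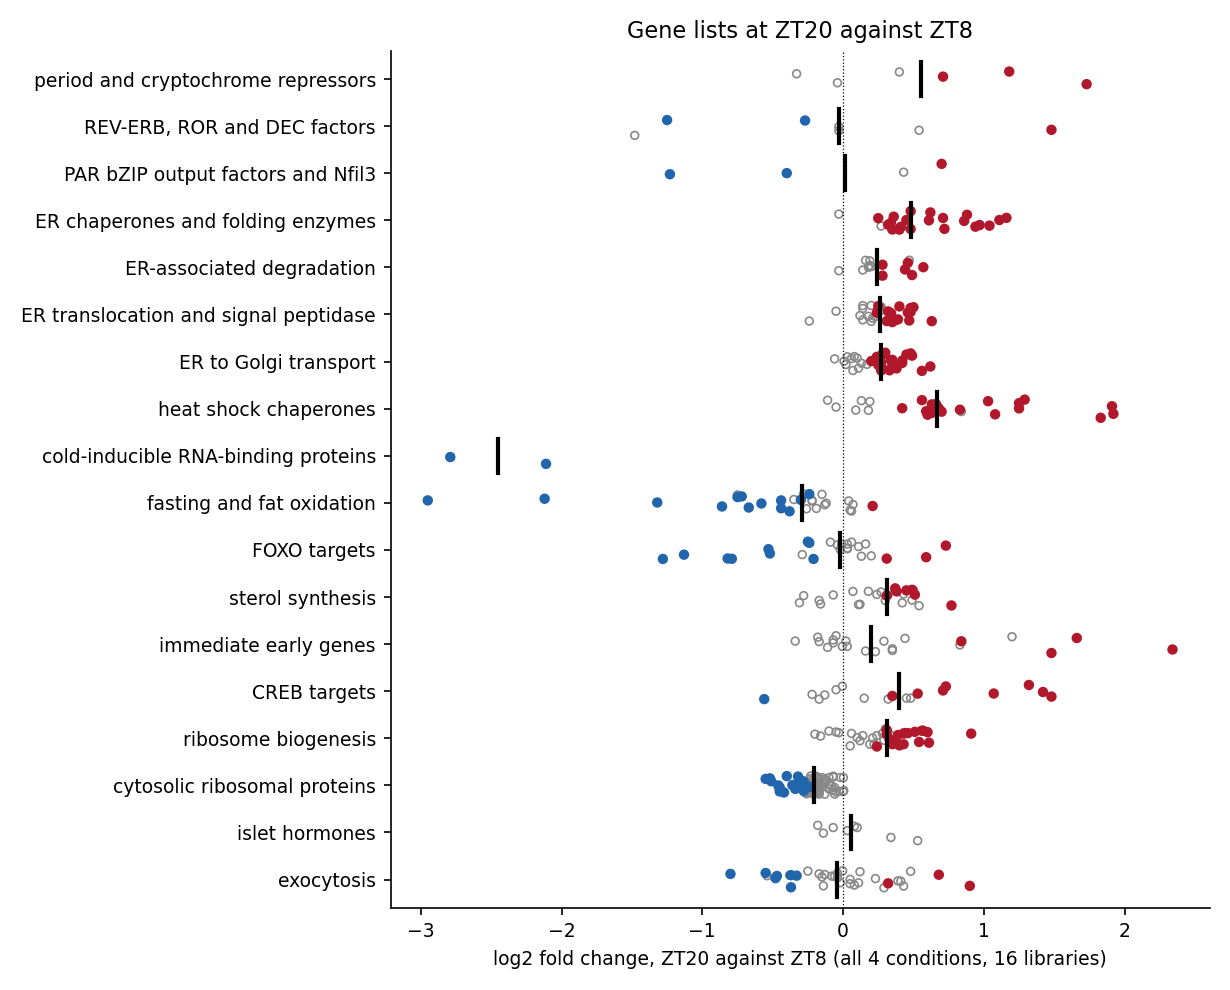
Log2 fold change at ZT20 against ZT8 of each tested member of 18 gene lists, fitted over all 16 libraries. Filled red and blue points passed as higher and lower (edgeR adjusted p under 0.05), open grey points did not pass, and the black bar is the list's median, which is 0.48 for ER chaperones, 0.66 for heat shock chaperones and -0.29 for fasting and fat oxidation.

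Genes of fasting and fat oxidation were lower in the feeding phase. Of 28 tested, 13 were lower and 1 higher at ZT20, where 11.0% of all genes were lower, and the median log2 fold change was -0.29. In 7 of them every pair was lower, as in 6.32% of all genes. Without the ZT8 DOX libraries of the later run 7 were lower (median -0.27), and in the control libraries alone 3 were (median -0.23). Cpt1a, which carries fatty acids into mitochondria, was at 46.9 to 95.4 CPM at ZT8 (median 74.6) and at 23.1 to 39.5 CPM at ZT20 (median 28.2), without overlap. Its log2 fold change was -1.32 ± 0.11 (adjusted p = 3.37e-06), with -1.31 in α and -1.30 in β cells, and it passed in every other setting over all conditions.

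Pdk2, a kinase that restrains pyruvate oxidation, was lower at ZT20 in 8 of 8 pairs, from 28.6 to 49.6 CPM at ZT8 to 19.7 to 29.8 CPM at ZT20 (-0.75 ± 0.11, adjusted p = 0.000286). Etfb and Acadvl, an electron carrier and a dehydrogenase of β-oxidation, were lower by -0.58 ± 0.07 and -0.44 ± 0.06 in log2, each in 8 of 8 pairs. Acadvl missed the threshold in the control libraries alone (-0.42, adjusted p = 0.0674).

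Of 25 FOXO target genes, 9 were lower and 3 higher at ZT20 (median -0.02), where 11.0% and 9.68% of all genes were. The higher calls were 0 to 2 with any single library left out and 0 in the control or the DOX libraries alone. With the ZT8 DOX libraries of the later run left out, 6 were lower and 0 higher, and in the control libraries alone 2 were lower. Fbxo32, the ubiquitin ligase atrogin-1, was at 17.0 to 50.8 CPM at ZT8 and at 6.30 to 20.7 CPM at ZT20 (-1.28 ± 0.16, adjusted p = 9.28e-05), lower in 8 of 8 pairs although the ranges overlapped. Klhl24, a ubiquitin ligase adaptor, was at 40.5 to 84.4 and at 13.6 to 35.3 CPM, without overlap (-1.13 ± 0.16, adjusted p = 0.000286).

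Of 25 genes of sterol synthesis, 7 were higher at ZT20 (median 0.31) in the comparison over all conditions, where 9.68% of all genes were. Without the ZT8 DOX libraries of the later run 5 were higher. The control libraries alone gave 5 (median 0.53) and the DOX libraries alone 1 (median 0.003). The summed level of the list was higher at ZT20 in all 4 α pairs. In β cells it went from 1519 to 1704 and from 1639 to 2633 CPM in controls but from 1593 to 1141 and from 1847 to 1553 CPM in DOX mice, so the treatments went opposite ways there. In α cells alone 14 were higher, where 6.09% of all genes were, with a median of 0.43, and in β cells 3 were, with a median of 0.12, where 2.81% of all genes were. Cyp51, the sterol demethylase, was at 17.4 to 22.0 CPM in α libraries at ZT8 and at 31.0 to 48.1 CPM at ZT20 (1.09 in α, 0.48 in β cells). No member of this list passed the test of a difference between cell types. Over the leave-one-out fits the count ran from 5 to 13.

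Genes that respond to activity and cyclic AMP were higher in part. Of 18 CREB target genes, 8 were higher and 1 lower (median 0.40), where 9.68% and 11.0% of all genes were. Leaving out the ZT8 DOX libraries of the later run, 5 were higher, and in the control libraries alone 1 was. Crem, which encodes the inducible repressor ICER among other forms, was at 10.5 to 30.1 CPM at ZT8 and at 31.8 to 91.2 CPM at ZT20, without overlap (1.32 ± 0.11, adjusted p = 2.95e-06). Of 22 immediate early genes, 4 were higher (median 0.19), and 3 of 23 without the ZT8 DOX libraries of the later run. The control libraries alone gave 1 higher (median -0.03) and the later run alone 2 higher and 2 lower (median 0.03), against medians of 0.68 in the DOX libraries alone and 0.65 in the earlier run alone. Fosl2, an AP-1 subunit, was at 1.05 to 10.5 CPM at ZT8 and at 6.77 to 37.1 CPM at ZT20 and rose in 8 of 8 pairs (1.66 ± 0.25, adjusted p = 0.000441).

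Nr4a1, an orphan nuclear receptor induced by calcium and cyclic AMP, varied widely between libraries, from 2.59 to 54.9 CPM at ZT8 and from 16 to 108 CPM at ZT20. Each pair rose, yet its call (1.48 ± 0.44, adjusted p = 0.0271) was lost in 12 other settings at log2 fold changes of 1.15 to 1.97. At ZT20 the single libraries whose removal ended the call were control α and DOX β of the later run and control β and DOX α of the earlier run. At ZT8 they were control β of the earlier run and DOX β of either run.

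Genes of ribosome biogenesis were higher in part, where 9.68% of all genes were. Of 38 biogenesis genes, 19 were higher and 0 lower at ZT20 (median 0.31), with Rrp12, a factor of ribosomal RNA processing, at 0.91 ± 0.14 (adjusted p = 0.000533). In the control libraries alone, which called 143 of 15648 genes higher, Rrp12 missed the threshold (0.81, edgeR adjusted p = 0.0749) and 0 of the 38 were called. Without the ZT8 DOX libraries of the later run 12 were. Of 78 genes of cytosolic ribosomal proteins, 22 were lower, 0 higher and 56 not called (median -0.21), where 11.0% of all genes were lower. Rpl3 was at -0.51 ± 0.11 (edgeR adjusted p = 0.00423). The second count depended on few libraries: it was 0 in the later run alone (median -0.03), 0 in the control libraries alone (median -0.13), 0 in β cells alone (median -0.19), 28 in the earlier run alone (median -0.38), 7 without the ZT8 DOX libraries of the later run, 50 without the ZT20 control libraries of the later run, and 10 to 42 when single libraries were left out. Rpl3 missed the threshold in the later run, the control and the DOX libraries alone, at -0.53 to -0.41.

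None of 8 islet hormone genes passed in the comparison over all conditions (median 0.05). Gcg had a log2 fold change of -0.23 in α cells, and Ins1 and Ins2 of -0.04 and -0.16 in β cells. Of 19 genes of prohormone processing and granins, 2 were higher and 1 lower at ZT20 (median 0.07), where 9.68% and 11.0% of all genes were. Among them Pcsk1, the convertase that cleaves proinsulin, was higher in 8 of 8 pairs (0.76 ± 0.18, adjusted p = 0.00798), with 1.20 in α and 0.34 in β cells. In α libraries it rose from 9.63 to 12.9 CPM to 17.1 to 38.7 CPM, the highest of which was the control library with the raised Ins2 level. It missed the threshold in the later run alone, the control libraries alone and the DOX libraries alone, at 0.60 to 0.91.

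Of 34 genes of exocytosis, 3 were higher and 7 lower at ZT20 (median -0.04), where 9.68% and 11.0% of all genes were, and 3 and 5 without the ZT8 DOX libraries of the later run. The synaptotagmin genes Syt5 and Syt4 rose by 0.90 ± 0.12 and 0.68 ± 0.09 (edgeR adjusted p = 0.000141 and 0.000168), each in 8 of 8 pairs. The fusion proteins Stx1a and Vamp2 were lower, at -0.55 ± 0.10 and -0.37 ± 0.07. Of 26 genes of stimulus-secretion coupling, 5 were lower and 1 higher, among them the potassium channel Kcnh6 (-0.84 ± 0.12, adjusted p = 0.000253), which was lower in 8 of 8 pairs. Stx1a missed the threshold in the control libraries alone and the DOX libraries alone, and Vamp2 in both runs and both treatments taken alone.

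Cell cycle genes gave few calls. None of 24 S-phase and none of 24 G2/M genes passed over all conditions. In α cells alone 2 of 24 G2/M genes were lower, and 3 of 24 S-phase genes were higher and 1 lower. Over all genes in α cells 6.09% were higher and 6.58% lower, so these calls were few beside those shares. The G2/M median there was -0.60, and 9 of 24 were lower in every pair, as 19.5% of all genes were. In β cells alone none of either list passed, with a G2/M median of 0.40, and no G2/M gene passed the test of a difference between cell types. The D-type cyclins Ccnd1, Ccnd2 and Ccnd3 rose by 0.49 ± 0.08, 0.51 ± 0.10 and 0.44 ± 0.09, each in 8 of 8 pairs. Of the CDK inhibitors in the same list of 15 genes, Cdkn1a was higher (0.68 ± 0.21) and Cdkn1c and Cdkn2c were lower (-1.14 ± 0.25 and -0.41 ± 0.12), named as all of its other calls. The list thus had 4 higher and 2 lower, where 9.68% and 11.0% of all genes were. Ccnd1 was at 109 to 253 CPM at ZT8 and at 180 to 333 CPM at ZT20, with the ranges overlapping across cell types. Ccnd2 and Ccnd3 missed the threshold in the control libraries alone (adjusted p of 0.0735 or more).

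All 16 acinar markers that passed the expression filter were lower at ZT20 (median log2 fold change -4.70), where 11.0% of all genes were. A gene could pass that filter through the ZT8 libraries in which it was high, so the shared direction may in part follow from the filter. The 10 largest falls by the rule for naming were digestive enzymes or other exocrine products. Without the ZT8 DOX libraries of the later run 13 of the 16 markers were lower, with a median of -2.58. In the earlier run alone 5 of 15 were lower (median -2.47). Prss2 had the log2 fold change -5.15 ± 0.88 (adjusted p = 0.00101). Markers of the other cell types that the sort could hold moved less: none of 18 macrophage and dendritic cell markers, of 12 stellate cell and fibroblast markers and of 10 δ, PP and ε cell markers passed, and 1 of 9 ductal and 1 of 9 endothelial markers was lower.

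In α cells alone 1943 of 15327 genes differed between the times (12.7%), with 934 higher (6.09%) and 1009 lower (6.58%) at ZT20, and in β cells alone 878 of 15878 (5.53%), with 446 higher (2.81%) and 432 lower (2.72%). The β count rose to 1690 without the control library of the later run at ZT20. It fell to 175 or 137 without the later-run or the earlier-run DOX library at ZT20, to 154 without the control library of the earlier run at ZT8, and to 95 or 190 without the later-run or the earlier-run DOX library at ZT8. Of 14659 genes tested in both, 419 were called in both, which is 21.6% of the α calls and 47.7% of the β calls, and 413 of these had the same direction. ER chaperones were higher in both, 14 of 24 in α cells (median 0.50) and 17 of 24 in β cells (median 0.70). Heat shock chaperones were 19 of 26 and 15 of 26, each with a median of 0.66. With any single library left out, the β counts ran from 4 to 16 and from 5 to 17, with medians that stayed above 0.

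A direct test of whether the time effect differed between the cell types called 15 of 16610 genes (0.0903%), 2 (0.0120%) with a larger and 13 (0.0783%) with a smaller log2 fold change in β cells. DESeq2 called 270, and 1656 genes had an unadjusted p under 0.05 in edgeR. Mapk4, an atypical MAP kinase, rose in α cells from 22.8 to 29.4 CPM at ZT8 to 38.6 to 46.5 CPM at ZT20, and fell in β cells from 4.01, 5.49, 12.6 and 13.5 CPM to 1.28, 1.68, 4.30 and 8.29 CPM. All 4 α pairs rose and all 4 β pairs fell. The log2 fold changes were 0.76 and -1.37, and their difference was -2.12 ± 0.20 (edgeR adjusted p = 0.000861).

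Kl, which encodes the FGF coreceptor klotho, rose from 68.2 to 93.9 CPM to 124 to 144 CPM in α cells and fell from 38.1 to 57.7 CPM to 27.9 to 43.1 CPM in β cells (difference -1.18 ± 0.14, adjusted p = 0.00921). Hapln1, a hyaluronan link protein, fell from 53.7 to 75.1 CPM to 28.7 to 32.6 CPM in β cells and had log2 fold changes of 0.50 in α and -0.98 in β cells (difference -1.50 ± 0.19, adjusted p = 0.00947). These 3 genes passed the test of the difference in each of its other settings. Fh1, the fumarase of the citric acid cycle, went the other way: it was at 62.0 to 68.6 CPM and 66.0 to 77.1 CPM in α cells and rose in β cells from 70.8 to 99.6 CPM to 176 to 242 CPM (difference 1.04 ± 0.15, adjusted p = 0.0192). The calls of Fh1, Jam2, Fam234a, Bcl2l1 and Spon2 were each lost in 5 to 12 other settings, most of them leaving out 1 library, with little change in the size of the difference (for Fh1, 0.98 to 1.09).

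**Figure D4:**
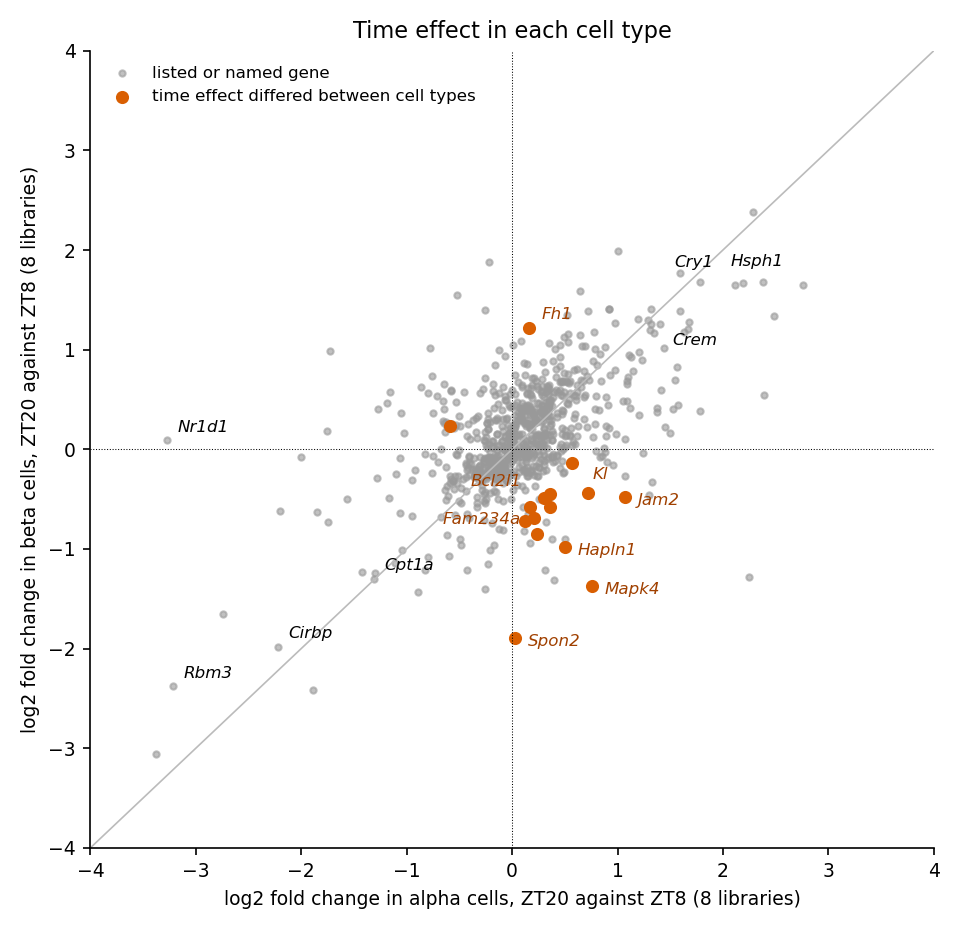
Log2 fold change at ZT20 against ZT8 in β cells against that in α cells for the genes of all lists and the named genes, within 4 on either axis, with the diagonal as a grey line. Orange points are the 15 genes whose time effect differed between the cell types, such as Mapk4 (0.76 in α, -1.37 in β cells), and Cry1 (1.78 and 1.68), Cirbp (-2.22 and -1.98) and Cpt1a (-1.31 and -1.30) lie near the diagonal.

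The test of whether the time effect differed between DOX and CTR mice called 0 of 16610 genes in edgeR (0.00%), with 513 at an unadjusted p under 0.05, and DESeq2 called 10. Cirbp had log2 fold changes of -2.12 in control α, -2.32 in DOX α, -1.76 in control β and -2.23 in DOX β cells, and its difference between treatments, averaged over the cell types as in this test, was -0.34 ± 0.22. Cry1 had 1.30, 2.28, 1.49 and 1.85, with a difference of 0.67 ± 0.30. Slc2a2, the glucose transporter GLUT2 of β cells, was at 1212 and 971 CPM at ZT8 and 816 and 756 CPM at ZT20 in control β cells, and at 799 and 1080 CPM and 215 and 316 CPM in DOX β cells. This gene was chosen after its values were seen, and the difference between treatments within β cells was not tested.

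The times ZT4 and ZT16, also 12 h apart, gave a second comparison of day and night from 16 other libraries. In a fit of all 32 libraries, 3926 of 17625 genes (22.3%) differed between ZT20 and ZT8 and 2402 (13.6%) between ZT16 and ZT4. The difference between these changes was itself called for 32 genes (0.182%), with 15 positive (0.0851%) and 17 negative (0.0965%), and DESeq2 called 226. Clock genes led it: Nr1d2 changed by -1.21 from ZT8 to ZT20 but by 0.71 from ZT4 to ZT16 (difference -1.92 ± 0.25, adjusted p = 0.000364), and Arntl by 0.83 and -1.06 (difference 1.89 ± 0.29, adjusted p = 0.00139). Per3 changed by -0.37 and 2.18 (difference -2.54 ± 0.36, adjusted p = 0.00076).

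Whole lists were also set side by side for the pairs of times. Of 24 ER chaperones 22 were higher at ZT20 than at ZT8 (where 10.6% of all genes were) and 6 at ZT16 than at ZT4 (where 6.24% were), with medians of 0.49 and 0.20. Pdia6 and Sdf2l1 passed the test of the difference (0.75 ± 0.14 and 0.98 ± 0.19), and Hspa5 did not (0.48, adjusted p = 0.21). Of 26 heat shock chaperones 19 and 14 were higher, with medians of 0.67 and 0.48. Cirbp changed by -1.36 and Rbm3 by -1.62 from ZT4 to ZT16, and the difference passed for Rbm3 (-1.17, adjusted p = 0.041) but not for Cirbp (-0.74, adjusted p = 0.0943). All 16 acinar markers were lower at ZT20 than at ZT8 in this fit (11.7% of all genes were), with the same limit from the expression filter. None was lower at ZT16 than at ZT4 (7.39% of all genes were), with a median of 0.15.

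Over the 6 sampled times, ZT8 and ZT20 held the highest and lowest means of some of these genes but not of others. Mean Rbm3 in α cells was 27.1, 40.0, 61.5, 45.8, 11.2 and 6.52 CPM from ZT0 to ZT20, so its highest and lowest means were at ZT8 and ZT20. The order was the same in β cells, from 67.1 CPM at ZT8 to 12.7 CPM at ZT20. Mean Hsph1 was lowest at ZT8 and highest at ZT20 in both cell types, at 42.1 and 192 CPM in α cells and at 83.8 and 260 CPM in β cells. Cry1 was highest at ZT20 in both, at 44.7 and 46.4 CPM, and lowest at ZT12, at 11.2 and 13.5 CPM. Nr1d2 and Per3 were highest and Arntl was lowest at ZT12 in both cell types, with Per3 in α cells at 34.4 CPM at ZT12 and at 11.1 and 9.15 CPM at ZT8 and ZT20. These means hold 4 libraries each, those at ZT0 all from the later run, and carry no test here.

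**Figure D5:**
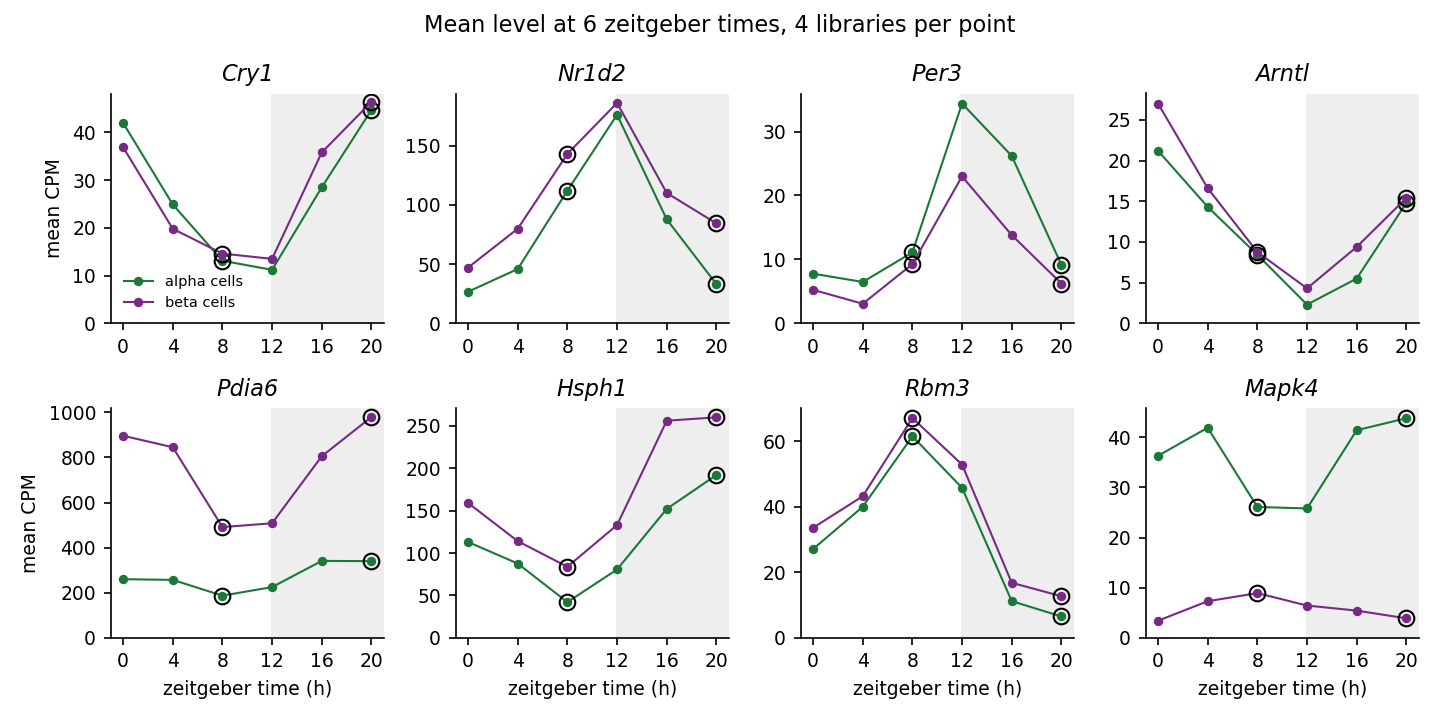
Mean level (CPM) of 8 genes at 6 zeitgeber times in α and β cells, over 4 libraries per point, with the dark phase shaded and ZT8 and ZT20 circled. Hsph1 and Rbm3 had their highest and lowest means at the circled times, while Nr1d2 and Per3 were highest at ZT12.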

How the data were processed

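RNA of sorted α and β cells was sequenced from polyA libraries made with an unstranded kit, per the labels' protocols, so a gene and an antisense partner cannot be told apart. The authors deposited estimated counts per gene in a table for each sequencing run. STAR, bcl2fastq and GRCm38 are named in the submitters' processing notes, and the counter is not given in the sources used here. Between 99.7% and 100% of the whole values up to 20 were even numbers, so the unit of 1 count is uncertain. The deposited RPKM tables were not used, and 0 columns belonged to no sample.

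Counts were rounded to whole numbers, filtered with filterByExpr (minimum count 10, minimum total 15), scaled by TMM and tested with edgeR 4.0.16 (R 4.3.3, limma 3.58.1) by the quasi-likelihood test, with condition and run as terms. CPM values use the TMM library sizes. The log2 CPM behind the pair directions and the principal components used a prior count of 2. Fold changes came from the edgeR fit, for which no prior count was set. The call threshold was a Benjamini-Hochberg adjusted p under 0.05 over all genes tested. DESeq2 1.42.0 was an alternative, as were other scaling, no filter, leaving out each library, each run, each treatment and other block terms. Tests of differences used interaction terms, and the comparison with ZT4 and ZT16 a fit of 32 libraries.

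At ZT8 and ZT20 the replicate number equals the run in the titles, and the run term is part of the main design. Deviations of libraries with the same number correlated at 0.194, 0.22, 0.0898 and 0.267 in control α, DOX α, control β and DOX β cells.

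Members and gene lists were chosen with earlier results of these data known. Of 835 genes in 44 lists, 832 matched a symbol. Named genes are the clock genes, Hspa5, Cirbp and the main hormones, the 10 largest rises and falls that held in all 8 pairs at 10 CPM or more, the 5 largest in each cell type, the 8 lowest p-values of each test of a difference, and up to 4 of each list by p. In simulated data with 200 changed genes, the test over all conditions recovered 71.6% of 1.5-fold, 94% of 2-fold and 97% of 4-fold changes among 16295 genes, and the test between treatments 2.99%, 50.7% and 93.9% among 16356 genes. The changed genes were drawn only from genes above a minimum mean count, so recovery of low-count genes was not measured. The simulated means held condition but no run effect, which the real libraries may have.

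Some items are not reported here. Promoters are from RefSeq (GRCm38.p6). Beside the motifs given with the results, searches on both strands covered the cAMP response element TGACGTCA (1.61% of promoters), its shorter form TGACG (17.8%), the ROR element AGGTCA (13.9%), its direct repeat with 1 base between the copies (0.0407%) and the D-box TTATGTAA or TTACGTAA (0.981%). The 3-unit heat shock element overlaps the paired units.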

Additional observations from a re-analysis of the deposited data

Results flagged for a closer look

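The change from ZT8 to ZT20 differed between cell types, by the interaction test of edgeR, for 8 named genes, given as the β minus the α log2 fold change. The differences were -2.12 for Mapk4, -1.18 for Kl, -1.50 for Hapln1, -1.57 for Jam2, -0.92 for Fam234a, 1.04 for Fh1, -0.83 for Bcl2l1 and -1.94 for Spon2. Jam2, a junction adhesion protein, had log2 fold changes of 1.07 in α and -0.48 in β cells. Bcl2l1, which encodes the survival protein BCL-XL, had 0.36 and -0.45. Spon2, a secreted matrix protein, had 0.03 and -1.89.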

How the results depend on the processing

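The count over all conditions (3443) was 1522 in the earlier run, 1195 in the later run, 276 in control and 1226 in DOX libraries alone, 1818 without the ZT8 DOX libraries of the later run (added after seeing the data), and 2660 to 3832 with single libraries left out. The count in α cells (1943) was 1000 in the earlier run, 432 in control and 57 in DOX libraries alone, and 766 to 1851 with single libraries left out. The count in β cells (878) was 1961 with DESeq2, 364 in the later run, 1842 in a fit over 6 times, 40 in control and 21 in DOX libraries alone, and 95 to 1690 with single libraries left out. Fits of 1 run, treatment or cell type hold fewer libraries. The 15 differences between cell types became 270 with DESeq2, 42 with no filter and 3 to 71 with single libraries left out. The 0 differences between treatments became 10 and the 32 between the pairs of times 226 with DESeq2. With no replicate block the counts were 2687 over all conditions, 1108 in α cells, 282 in β cells, 4 between cell types, 0 between treatments and 18 between pairs of times, and with a block within each condition 2928, 1550 and 517 for the first 3. No named gene reversed. Of the named genes called over all conditions, 38 of 133 kept the call in every setting, as did 17 of 115 in α and 4 of 81 in β cells. Depth differed between the runs, and 2 libraries per group limit what the tests between treatments and cell types can call.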

Other observations

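Of 20 interferon-stimulated genes, 3 were higher and 0 lower at ZT20 over all conditions, with a median log2 fold change of 0.40, where 9.68% of all genes were higher. In the earlier run alone 11 were higher (median 0.99) and in the later run alone 0 (median 0.05). Of 15 glucocorticoid receptor targets, 4 were higher and 4 lower, with a median of -0.005. Of 24 oxidative stress genes, 3 were lower and 0 higher, and of 27 genes of glucose sensing and ChREBP targets 4 were higher and 4 lower. Over all genes 11.0% were lower. None of 8 mitochondrial transcripts was called (median -0.19).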
